A study of Homo sapiens with 6 samples.

Results

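The RNase H and 5′ to 3′ exonuclease genes are 6 rows of the gene count table chosen by symbol, *RNASEH1*, *RNASEH2A*, *RNASEH2B*, *RNASEH2C*, *XRN1* and *XRN2*, out of 26485 rows in all. All 6 were present, and all 6 passed the filter on low counts that left 14877 genes for testing. RNA-seq of polyA RNA was performed on HEK293 cells, a line derived from human embryonic kidney, in 3 cultures in which the long noncoding RNA *HSALNG0134318* was knocked down and in 3 control cultures (NC in the labels, with the genotype WT). The knockdown cultures were transiently transfected with a Smart Silencer, which combines siRNAs with antisense oligonucleotides, using Lipofectamine RNAiMAX. What the control cultures were transfected with is not given in the sources used here, so the presence of the oligonucleotides and the loss of their target cannot be told apart in this comparison. The silenced transcript has no row in the count table, so its loss could not be checked.

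RNase H enzymes cut the RNA strand of an RNA:DNA hybrid, and this is how a DNA-containing antisense oligonucleotide has its target RNA cleaved in the cell. RNase H1 is a single polypeptide found in the nucleus, the cytoplasm and mitochondria, and it is the enzyme on which most antisense oligonucleotide activity depends. RNase H2 is a complex of the catalytic subunit RNASEH2A with RNASEH2B and RNASEH2C, and it also removes single ribonucleotides from genomic DNA. XRN1 in the cytoplasm and XRN2 in the nucleus digest RNA from its 5′ end, which clears the downstream fragments left by RNase H or Argonaute cleavage. XRN1 is the main exonuclease for decapped messages, and XRN2 acts at transcription termination and in rRNA maturation.

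None of the 6 genes was called between knockdown and control cultures by edgeR (quasi-likelihood test, Benjamini-Hochberg adjusted p under 0.05), where 10% of the 14877 genes tested were called. At an unadjusted p under 0.05 there was 1, *RNASEH2B*, against 3996 of the 14877 genes tested. The DESeq2 Wald test and limma-voom also called 0 of the 6, against 12.2% and 9.85% of all genes. *RNASEH2B* had the log2 fold change farthest from 0 (-0.40, 95% interval -0.67 to -0.12), and *RNASEH1* had the next (0.19, -0.03 to 0.41). The knockdown and control values did not overlap in 2 of the 6 genes, again *RNASEH1* and *RNASEH2B*, and this was so for 32.2% of the genes tested. Over the 6 genes the 95% intervals lay between a fold of 0.627 and a fold of 1.42, so that a doubling lay outside each of them. In whole cultures, fewer cells of one kind and less RNA per cell cannot be told apart.

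Counts per culture totalled 13900965 to 16869948, and the 6 genes had between 336 and 3763 counts in a culture. Counting error alone is then 5.46% of the smallest and 1.63% of the largest of these counts. Markers of the line were present in every culture (*VIM* from 9127 to 13918 counts and *KRT8* from 5470 to 8247), and *PTPRC*, *ALB*, *PECAM1*, *NPHS1* and *DCN*, markers of leukocytes, hepatocytes, endothelium, podocytes and fibroblasts, had at most 6. *LRP2*, a marker of proximal tubule fixed as one that should be near 0, had 548 to 1125 counts. Control replicate 2 stood apart, at a root mean square log2 distance of 0.474 and 0.514 from the other controls, which lay 0.398 from each other. Distances from the knockdown cultures were 0.495 to 0.525 for control replicate 1, 0.555 to 0.574 for control replicate 2 and 0.422 to 0.438 for control replicate 3. Control replicate 3 thus lay nearer to each knockdown culture than to control replicate 2.

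*RNASEH1* lies on the minus strand of chromosome 2, from 3541430 to 3558333 (GENCODE release 44 on hg38). Knockdown replicates 1 to 3 held 683, 641 and 613 raw counts of it, in that order, and control replicates 1 to 3 held 574, 613 and 593. After scaling to the same library size these became 658, 669 and 658 normalized counts in the knockdown cultures and 586, 547 and 610 in the control cultures. All 3 knockdown values therefore lay above all 3 control values, and the knockdown values had a coefficient of variation of 0.915%, which is below their counting error. Means were 662 ± 6.05 against 581 ± 31.8 normalized counts (SD, n = 3 cultures), a fold of 1.14 that did not pass the test (adjusted p = 0.262 from edgeR). Leaving out any 1 culture kept the log2 fold change between 0.15 and 0.23.

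The start of *RNASEH1* is shared with a long noncoding RNA on the other strand, *RNASEH1-AS1* in the count table and *RNASEH1-DT* in GENCODE, and 85 bases lie between both genes. Of the 6 starts, this one and those of *RNASEH2A* and *RNASEH2B* are shown because *RNASEH1-AS1* was also measured and because the level of *RNASEH2B* relative to *RNASEH2A* differed most between the groups. The sequences are RefSeq's windows on GRCh38.p14, 250 bases before to 50 bases after the start site, on the strand of the gene. They span chr2:3558284-3558583 (minus strand), chr19:12806334-12806633 (plus strand) and chr13:50909541-50909840 (plus strand). Capitals mark a GC box, spelled GGGCGG, a box with the letters CCAAT, or CGGAAG, which is the core of an ETS site, each searched on both strands, and no match overlaps another motif in these windows.

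RNASEH1: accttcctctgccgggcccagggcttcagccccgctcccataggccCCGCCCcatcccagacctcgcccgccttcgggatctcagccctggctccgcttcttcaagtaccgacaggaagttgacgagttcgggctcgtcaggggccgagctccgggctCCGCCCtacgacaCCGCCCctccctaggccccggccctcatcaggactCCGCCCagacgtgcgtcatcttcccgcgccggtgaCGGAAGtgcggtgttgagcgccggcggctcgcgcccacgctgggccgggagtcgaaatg

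RNASEH2A: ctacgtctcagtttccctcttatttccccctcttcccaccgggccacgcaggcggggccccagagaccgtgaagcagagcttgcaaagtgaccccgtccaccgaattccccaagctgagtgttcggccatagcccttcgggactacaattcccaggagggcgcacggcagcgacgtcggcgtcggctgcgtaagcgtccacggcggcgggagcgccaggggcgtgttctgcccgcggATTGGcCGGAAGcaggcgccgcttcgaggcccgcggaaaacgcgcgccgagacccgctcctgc

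RNASEH2B: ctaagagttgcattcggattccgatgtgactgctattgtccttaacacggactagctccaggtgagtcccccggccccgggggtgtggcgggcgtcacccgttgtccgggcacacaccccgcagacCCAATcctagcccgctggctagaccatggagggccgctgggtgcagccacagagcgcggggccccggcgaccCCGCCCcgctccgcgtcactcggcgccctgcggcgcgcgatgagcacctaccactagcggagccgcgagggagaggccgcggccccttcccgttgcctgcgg

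The *RNASEH1* window holds 4 GC boxes and 1 ETS core, that of *RNASEH2A* holds 1 CCAAT box and 1 ETS core close to each other, and that of *RNASEH2B* holds 1 GC box and 1 CCAAT box. Over the 6 genes, 3 windows hold a GC box, 2 a CCAAT box and 3 an ETS core. Among all 35116 RefSeq windows of this length, 45.0% hold a GC box, 34.6% a CCAAT box and 19.5% an ETS core. The window of *XRN2* also holds TGACGTCA, the cAMP response element, which is in 1.85% of all windows and here runs on into the ETS core. None of the 6 windows holds a TATA box (TATAAA on either strand), against 11.5% of all windows. These matches describe the letters only.

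Raw counts of *RNASEH1-AS1* were 147, 112 and 164 in the knockdown cultures against 67, 134 and 103 in the control cultures, each in replicate order. In normalized counts the knockdown cultures held 142, 117 and 176 and the control cultures 68.4, 120 and 106, so that knockdown replicate 2 fell below control replicate 2. *RNASEH1-AS1* was 0.56 higher on the log2 scale (SE 0.23), which did not pass the test (edgeR adjusted p = 0.147). The strand setting of the counting is not given in the sources used here, but both genes share no exonic bases in the annotation. *RNASEH1* shares 1018 exonic bases with an unnamed protein-coding gene on the same strand, which has no row in the count table.

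None of the 3 subunits of RNase H2 passed the test. *RNASEH2A*, the catalytic subunit, lies on chromosome 19 from 12806584 to 12813640. Its normalized counts were 1170, 963 and 955 in the knockdown cultures and 715, 1117 and 898 in control replicates 1, 2 and 3. The values interleave, with control replicate 2 second only to knockdown replicate 1 among the 6. Knockdown over control came to 0.18 on the log2 scale (SE 0.15, edgeR adjusted p = 0.491). It lay between 0.03 without control replicate 1 and 0.35 without control replicate 2, where the adjusted p from edgeR was 0.0546. The gene *HOOK2* runs on the opposite strand over the whole of *RNASEH2A* without sharing exonic bases, and its log2 fold change was 0.12 (edgeR adjusted p = 0.608). *THSD8*, on the same strand, shares 1095 exonic bases with *RNASEH2A* and has no row of that name in the count table.

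*RNASEH2B*, the subunit that carries a motif for binding the replication clamp PCNA, lies on chromosome 13 from 50909747 to 51024120. It was the least counted of the 6 genes. Its raw counts in replicate order were 383, 336 and 353 with the knockdown and 433, 623 and 435 without it. In normalized counts these were 369, 351 and 379 against 442, 556 and 448. Every knockdown value was below every control value, and control replicate 2 was the highest of all. The means were 366 ± 14.5 and 482 ± 64.4 normalized counts (SD, n = 3 cultures), a fold of 0.760 in the knockdown cultures for which edgeR gave an unadjusted p of 0.00899 and, after adjustment, 0.0707. It was thus the nearest of the 6 to the threshold without passing it, and it ranked 1892 by p among the genes tested. Without control replicate 2 the log2 fold change was -0.28 (adjusted p = 0.0976 from edgeR). When each library was corrected for its trend with the GC content and length of transcripts, the log2 fold change was -0.35 and passed the test at an adjusted p of 0.0404 from edgeR, under a setting in which 19.6% of the genes were called. That call was not kept with the replicate number as a block in the same fit (adjusted p = 0.0657) or when any culture but control replicate 3 was left out of it (from 0.0669 to 0.163). Over the 14 alternative settings, the sign stayed negative and the adjusted p ran from 0.0404 to 0.248. The antisense gene *RNASEH2B-AS1* had 0 to 7 counts and was not tested. *GUCY1B2*, a pseudogene on the opposite strand, shares 21 exonic bases with *RNASEH2B*. It had 9 to 22 counts and a log2 fold change of 0.70 (edgeR adjusted p = 0.28).

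*RNASEH2C* lies on the minus strand of chromosome 11 from 65714005 to 65720818. Its normalized counts were 806, 746 and 707 in the knockdown cultures and 591, 897 and 617 in control replicates 1, 2 and 3. All 3 knockdown values lay above control replicates 1 and 3 and below control replicate 2. Knockdown minus control was 0.10 on the log2 scale (SE 0.15, edgeR adjusted p = 0.718). Its direction depended on which culture was left out, since it was -0.01 without control replicate 1 and 0.32 without control replicate 2, where it passed the test (adjusted p = 0.0444) while 16.7% of all genes were called. *RNASEH2C* shares 1439 exonic bases with *KAT5*, an acetyltransferase gene on the opposite strand. The libraries were made with a stranded kit, but whether the counting used strand is not given in the sources used here, so reads of these bases may have been counted for either gene or for neither. The log2 fold change of *KAT5* was 0.09 (edgeR adjusted p = 0.685).

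**Figure D1:**
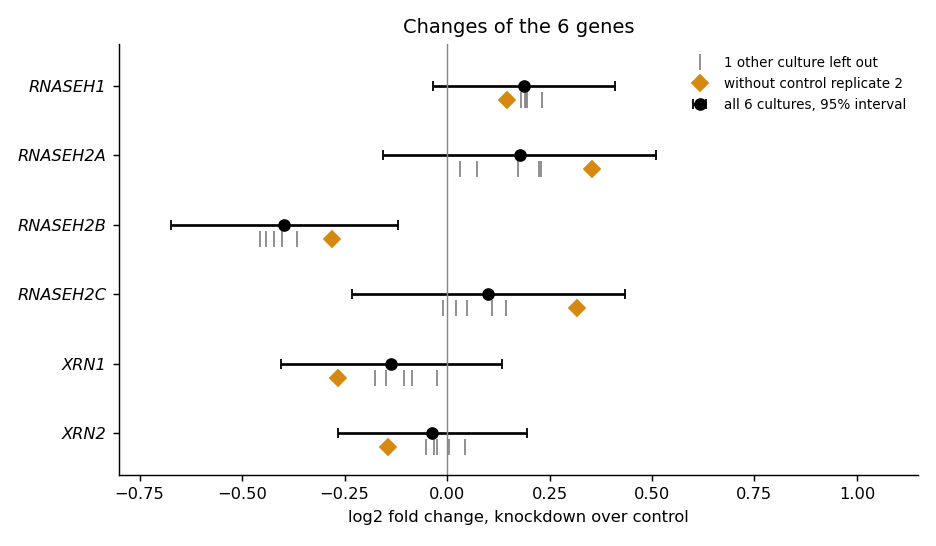
Log2 fold change of knockdown over control (horizontal axis) for the 6 genes, with points and 95% intervals from edgeR on all 6 cultures, grey marks where 1 other culture was left out, and diamonds without control replicate 2. The interval excludes 0 in *RNASEH2B* alone before adjustment, and the diamond is the mark farthest from the point in *RNASEH2A*, *RNASEH2B*, *RNASEH2C*, *XRN1* and *XRN2*.

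Ratios of counts within a culture do not depend on how libraries are scaled, and they were used to compare the subunits directly. A trend of a library with GC content is not removed by a ratio, and its part in these ratios was not tested. The GC content of the transcripts is 57.5% for *RNASEH2A* and *RNASEH2C* and 43.9% for *RNASEH2B*. The ratio of *RNASEH2B* to *RNASEH2A* was 0.315, 0.364 and 0.397 in knockdown replicates 1, 2 and 3, and 0.618, 0.498 and 0.498 in control replicates 1, 2 and 3. The groups did not overlap in this ratio. Neither did they in *RNASEH2B* alone, as in 32.2% of the genes tested, and ratios of other gene pairs were not counted. The geometric mean ratio in the knockdown cultures was 0.667 times that in the control cultures. The log2 difference was -0.58, against SDs of 0.17 and 0.18 within the groups, and it lay between -0.66 and -0.48 when any 1 culture was left out. The exact two-sided permutation test of 3 against 3 cultures gave p = 0.1, the smallest p this design allows (adjusted p = 0.25 over 5 ratios).

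The ratio of *RNASEH2C* to *RNASEH2B* was 2.18, 2.13 and 1.87 in the knockdown cultures and 1.34, 1.61 and 1.38 in control replicates 1, 2 and 3. It was 1.43 times higher in the knockdown cultures, also without overlap, with an exact permutation p of 0.1 (adjusted p = 0.25). Leaving out any 1 culture kept its log2 difference between 0.46 and 0.60. In contrast, the ratio of *RNASEH2C* to *RNASEH2A* ran from 0.689 to 0.775 in the knockdown cultures and from 0.687 to 0.826 in the control cultures, and the groups overlapped (log2 difference -0.07, exact permutation p = 0.6, adjusted p = 0.75). Both ratios without overlap contain *RNASEH2B*, so they are not independent of each other.

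**Figure D2:**
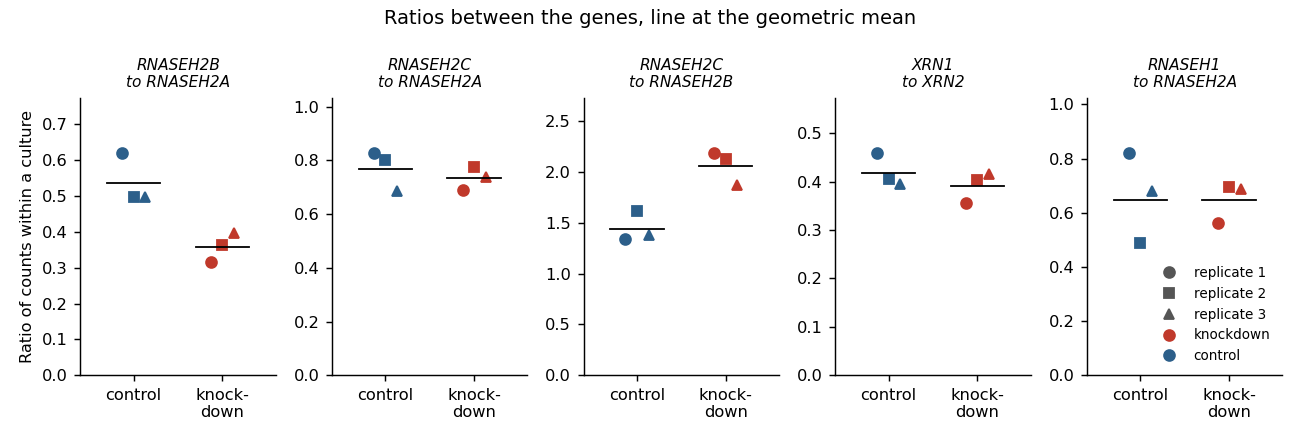
Ratio of counts (vertical axes, from 0) between pairs of genes within each culture, for 3 control (blue) and 3 knockdown (red) cultures, with a line at the geometric mean of each group. The groups are separate in the ratios that contain *RNASEH2B* (0.315 to 0.397 against 0.498 to 0.618 to *RNASEH2A*) and overlap in the other 3.

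*XRN1*, on the minus strand of chromosome 3 from 142306607 to 142448062, had 1243, 1363 and 1414 normalized counts in the knockdown cultures. The control cultures held 1696, 1202 and 1524 in replicates 1, 2 and 3. Control replicate 2 was the lowest of the 6 values and control replicates 1 and 3 were the highest, so the groups overlapped through control replicate 2. The difference on the log2 scale was -0.14 (SE 0.12, edgeR adjusted p = 0.515). It was -0.27 without control replicate 2, with an adjusted p of 0.0545, and -0.02 without control replicate 1.

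*XRN2*, on chromosome 20 from 21303331 to 21389825, was the most counted of the 6 genes. It had 3495, 3376 and 3409 normalized counts in the knockdown cultures and 3705, 2967 and 3872 in control replicates 1, 2 and 3. All 3 knockdown values fell between control replicate 2 and the other controls. The means were 3427 ± 61.6 and 3514 ± 482 normalized counts (SD, n = 3 cultures). The log2 fold change of -0.04 had a 95% interval from -0.27 to 0.19 (adjusted p = 0.862 from edgeR), and its sign turned when control replicate 1 or control replicate 3 was left out (0.00 and 0.04).

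The ratio of *XRN1* to *XRN2* ran from 0.356 to 0.415 in the knockdown cultures and from 0.394 to 0.458 in the control cultures, with a log2 difference of -0.10 (exact permutation p = 0.5, adjusted p = 0.75). The ratio of *RNASEH1* to *RNASEH2A*, which compares both kinds of RNase H, ran from 0.563 to 0.694 and from 0.490 to 0.819. Its log2 difference was -0.01 (exact permutation p = 1, adjusted p = 1), but it lay between -0.21 and 0.16 when any 1 culture was left out.

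In all 6 genes the control cultures varied more than the knockdown cultures, as did the libraries as a whole, whose log2 distances within a group were 0.398 to 0.514 among controls and 0.294 to 0.338 among knockdown cultures. The coefficient of variation of normalized counts was 5.47% to 24.2% among controls and 0.915% to 11.8% among knockdown cultures. Control replicate 2 differed from the mean of the other controls by 0.57 on the log2 scale in *RNASEH2C*, 0.48 in *RNASEH2A* and 0.32 in *RNASEH2B*, and by -0.42 in *XRN1*, -0.35 in *XRN2* and -0.13 in *RNASEH1*. It was thus high in the subunits of RNase H2 and low in the other 3 genes. Over all genes with a known GC content, the same culture differed from the other controls by a median of 0.25 among genes with a GC content above 54.3% and by -0.20 among those with one below 44%. The transcripts of *RNASEH2A* and *RNASEH2C* have a GC content of 57.5%, and those of *XRN1* and *XRN2* have 37.1% and 42.8%. *RNASEH2B* has 43.9%, just below the lower limit, where the median was -0.20, while its own difference was 0.32. *RNASEH1* has 44.6%, and genes between both limits had a median of 0.00. The part of GC content in these deviations was not tested for single genes.

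**Figure D3:**
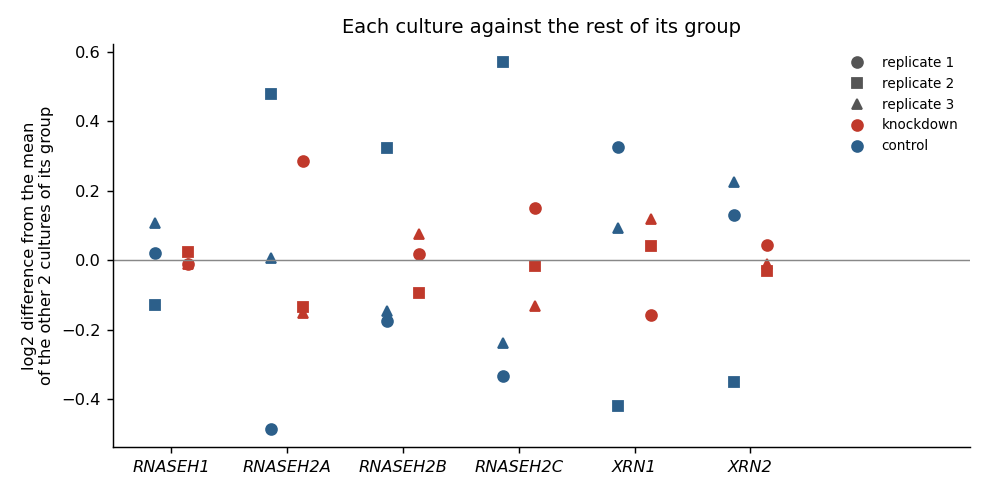
Log2 difference of each culture from the mean of the other 2 cultures of its group (vertical axis) for the 6 genes. Control replicate 2 (blue squares) lies farthest above 0 in *RNASEH2C* (0.57) and farthest below 0 in *XRN1* (-0.42), and all knockdown cultures (red) stay between -0.16 and 0.29.

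To order the genes by level, counts were divided by transcript length. In counts per kilobase of the canonical transcript, scaled for library size (FPKM), *XRN2* and *RNASEH2A* held the first and second places in every culture, with 68.6 ± 9.39 and 52.0 ± 11.5 in the control cultures and means of 66.8 and 58.8 in the knockdown cultures (SD, n = 3). *RNASEH2B* (21.2 ± 2.83) and *RNASEH2C* (17.6 ± 4.26) came next in the control cultures, and *XRN1* (9.72 ± 1.65) and *RNASEH1* (7.30 ± 0.399) came last. *XRN2* and *RNASEH2A* changed places between cultures of the same group, as did *XRN1* and *RNASEH1*. The order within these pairs thus did not hold in every culture, and their difference was not tested. *RNASEH2B* lay above *RNASEH2C* in all 3 control cultures and below it in all 3 knockdown cultures (means of 16.1 and 18.9), which is the ratio without overlap given above. These places hold for the canonical length only. With the coding length, *RNASEH1* (45.0 FPKM in control cultures) came above *RNASEH2B* (30.1) in every culture, *RNASEH2C* (63.0) took place 2 or 3, and *XRN2* fell as low as place 3. With all annotated exons merged, the length of *RNASEH2B* is 26222 bases in place of 1513 and its control level becomes 1.22 FPKM, the lowest of the 6.

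For each gene, the 2 genes with the most similar pattern over the 6 cultures were taken from 11294 others with a mean of at least 100 counts, by Pearson's r of log2 normalized counts. They were *OSBPL11* and *ZNF45* for *RNASEH1* (r of 0.999 for both), *SLC25A3* and *TRAPPC3* for *RNASEH2A* (0.994 and 0.993), and *STON1* and *SELENBP1* for *RNASEH2B* (0.996 for both). For *RNASEH2C* they were *SLC19A1* and *CSNK1G2* (0.997 and 0.995), for *XRN1* they were *TOPBP1* and *STAU2* (0.999 and 0.997), and for *XRN2* they were *CD109* and *VRK2* (0.989 and 0.987). All pairs share the libraries and 6 points each, and the values describe these cultures only. *OSBPL11* and *ZNF45* rose in the knockdown cultures, with log2 fold changes of 0.54 and 0.50 (adjusted p of 0.0173 and 0.0180 from edgeR), and the other 10 genes were not called.

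The genes around these enzymes were counted over 10 lists holding 157 different genes, all of which were tested. Of these, 5 were called lower and 2 higher, which is 4.46% against 10% of all genes tested, and their median log2 fold change was -0.03, against -0.02 over all genes. With the correction for GC content and length, 12 were called lower and 11 higher while 19.6% of all genes were called, and when control replicate 3 was also left out, 19 and 25 while 29.8% were, so the distance from the background depended on the setting. In deadenylation, the shortening of the poly(A) tail before decapping, 3 of 20 genes fell, 1 rose and 16 did not pass the test, with a median log2 fold change of -0.12. *CNOT6*, a deadenylase subunit of the CCR4-NOT complex, had 2546 ± 183 normalized counts in control and 1697 ± 139 in knockdown cultures (SD, n = 3) and fell by 0.59 on the log2 scale (SE 0.10, edgeR adjusted p = 0.00358). *TOB1*, which recruits that complex to messages, fell by 0.72 on the log2 scale, with 1160 ± 174 against 705 ± 91.1 normalized counts (adjusted p = 0.00758). *CNOT6L*, a paralogue of *CNOT6*, fell by 0.46 on the log2 scale (adjusted p = 0.0395), and *PAN2*, the deadenylase of the PAN complex, rose by 0.37 on the log2 scale (adjusted p = 0.0215). The calls of *CNOT6* and *TOB1* were kept in all 14 alternative settings. Those of *CNOT6L* and *PAN2* were kept in 9 each and were lost when any knockdown culture or control replicate 1 was left out, and besides without control replicate 3 for *CNOT6L* and with the replicate block for *PAN2* (adjusted p up to 0.155 and 0.106).

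In the list of decapping and cytoplasmic 5′ decay, 0 of 19 genes were called by edgeR (median log2 fold change -0.00, from -0.50 for *DCPS* to 0.30 for *NUDT16*). The decapping enzyme *DCP2* had a log2 fold change of -0.01. None of the 10 genes of nonsense-mediated decay was called (median -0.04). Of 22 genes of RNA decay from the 3′ end, which are the RNA exosome, its cofactors and *DIS3L2*, 1 rose and 0 fell. It was *DIS3L2*, an exosome-independent 3′ exonuclease, with a log2 fold change of 0.37 (adjusted p = 0.0496 from edgeR), and 7 of the 14 alternatives took away this call (adjusted p up to 0.207). Of the 17 partners of XRN2 and factors of transcription termination, 0 were called. Here 13 of the 17 log2 fold changes were above 0, with a median of 0.13, against -0.02 over all genes tested. The share above 0 over all genes was not counted. The largest value of the list was 0.39 for the cleavage factor *PCF11* (adjusted p = 0.0558 from edgeR). *CDKN2AIP*, whose protein binds XRN2, had the lowest value of this list (-0.29, adjusted p = 0.0963).

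On the RNase H side, 0 of 21 helicases, topoisomerases and packaging factors that act on RNA:DNA hybrids were called (median -0.00, with the highest value, 0.34, for *TOP1*). Of these, *DDX39B* and *RTEL1* had only 9 to 17 and 8 to 18 counts in a culture, so their changes were poorly resolved (SE 0.40 and 0.42). Among 14 genes acting after RNase H incision in ribonucleotide repair and Okazaki fragment processing, *PCNA* fell and the other 13 did not pass the test. The replication clamp *PCNA* fell by 0.35 on the log2 scale (SE 0.09, edgeR adjusted p = 0.0269), with 4110 ± 141 normalized counts in control and 3232 ± 207 in knockdown cultures (SD, n = 3). Its call was kept in 9 of 14 alternative settings and was lost with the replicate block and when any knockdown culture or control replicate 1 was left out (adjusted p up to 0.165). Among 14 genes of mitochondrial DNA replication and RNA turnover, where RNase H1 also acts, *MGME1* fell and 13 did not pass the test. *MGME1*, a mitochondrial DNA exonuclease, fell by 0.55 on the log2 scale, with 898 ± 57.6 against 612 ± 14.4 normalized counts (adjusted p = 0.00599), and kept its call in all 14 alternative settings.

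Variants in the 3 RNase H2 subunit genes cause Aicardi-Goutières syndrome, a type I interferon disorder. Of 5 other genes of that syndrome, 0 were called in the main fit. The DESeq2 Wald test called 1 lower, and the correction for GC content and length called 2 lower. *LSM11* and the RNA sensor *IFIH1* had log2 fold changes of -0.44 and -0.43 (adjusted p of 0.0694 and 0.0636 from edgeR), *SAMHD1* and *ADAR* had -0.10 and -0.05, and the DNA exonuclease *TREX1* had 0.58 (adjusted p = 0.139). Of 15 abundant proteins known to bind antisense oligonucleotides, 0 were called (median -0.08, from -0.59 for *HSPA8* to 0.34 for *HSP90AA1*). *HSPA8*, a heat shock cognate chaperone, had an adjusted p of 0.0764 from edgeR. DESeq2's Wald test called 8 lower and 3 higher of the 157, while it called 12.2% of all genes with an adjusted p.

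**Figure D4:**
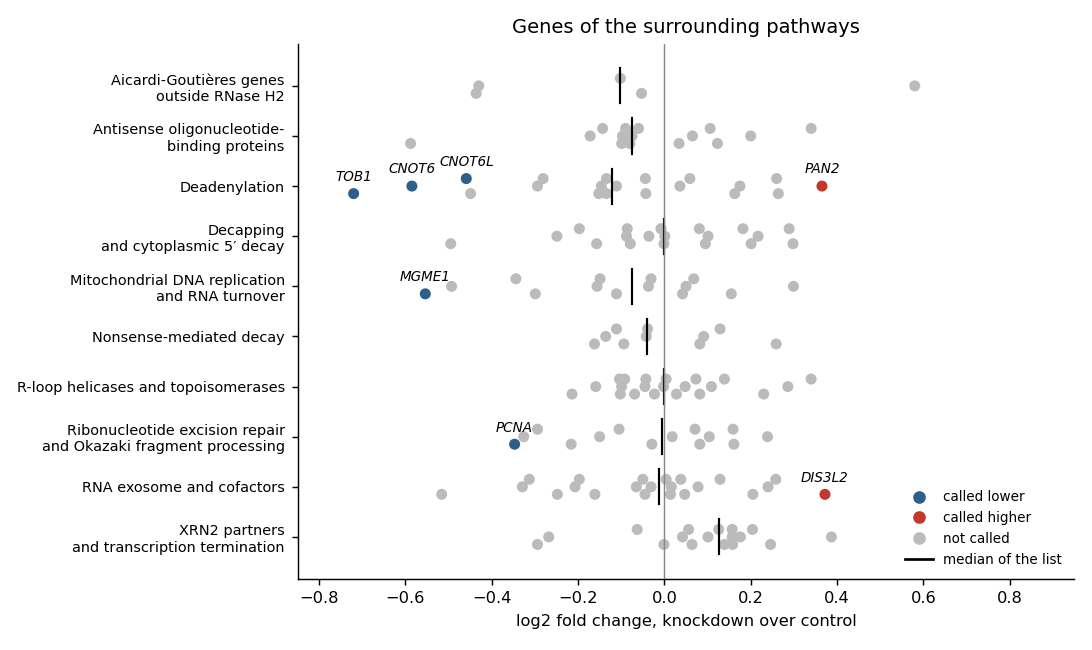
Log2 fold change of knockdown over control (horizontal axis) for each gene of the 10 lists around RNase H and the 5′ to 3′ exonucleases, with called genes in colour and named and a bar at each list's median. The 4 called genes of deadenylation lie at -0.72, -0.59, -0.46 and 0.37, and the other lists hold 1 called gene or 0.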

How the data were processed

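RNA-seq of polyA RNA was measured in 6 HEK293 cultures. Libraries were stranded. According to the submitters' processing notes, from which the versions are taken, and to the study's methods, which name other releases of STAR and of the package holding featureCounts, the authors checked reads with FastQC 0.11.9, trimmed them with Trim Galore 0.6.6, removed rRNA with SortMeRNA, aligned with STAR 2.7.9a to hg38 and counted with featureCounts 2.0.1. The deposited values are raw read counts per gene symbol. The gene annotation, the strand setting and the handling of multi-mapping reads are not given in the sources used here, and any of these could move counts between overlapping genes. Columns of the count table were matched to cultures by their labels.

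Counts were filtered with filterByExpr, scaled by TMM and entered into the robust quasi-likelihood F test of edgeR 4.0.16, run under R 4.3.3, on all 6 cultures without a covariate, and p was adjusted by Benjamini-Hochberg over the 14877 genes tested. To give normalized counts, each count was scaled to the mean effective library size. Standard errors are the log2 fold change divided by the root of F. Ratios between genes were tested by the exact permutation test over 20 arrangements. Names were matched to GENCODE release 44, 23161 by symbol and 1372 through a RefSeq synonym. The exonic length was to be the main length for levels, but the canonical transcript, chosen after the data were seen, is given first.

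The alternatives were DESeq2 size factors, library sizes alone, no filter, a minimum of 10 counts in all cultures, a block for the replicate number, each culture left out, the DESeq2 1.42.0 Wald test, limma-voom (limma 3.58.1), and a loess correction (span 0.3) of every library for transcript GC content and length. The correction with the block or without each culture was added after the data were seen. The genes, lists and tests were chosen with earlier results of these data known. The genes named were the 6 enzymes, genes overlapping them, at most 3 called genes a list (*CNOT6L* was added to account for each call, and so were the uncalled genes at the ends of a list's range and a few uncalled genes of known function), and the 2 most similar genes each. Figures were drawn with matplotlib 3.10.9. Scripts were tested on simulated data.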

Additional observations from a re-analysis of the deposited data

How the results depend on the processing

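Of the 6 enzyme genes, 0 were called under DESeq2 size factors, library sizes alone, no filter, a minimum of 10 counts in all cultures, the replicate block, the DESeq2 Wald test and limma-voom. With the correction for GC content and length 1 was called, *RNASEH2B* (log2 fold change -0.35), where 19.6% of all genes were called. With 1 culture left out, with or without that correction, 0 to 2 were called. *RNASEH2C* was called without control replicate 2 (0.32), where 16.7% of all genes were called. *RNASEH2A* (0.27) and *RNASEH2B* (-0.42) were called without control replicate 3 after the correction, where 29.8% of all genes were. With 1 culture left out in either fit, the log2 fold change ran from 0.031 to 0.353 for *RNASEH2A*, from -0.46 to -0.24 for *RNASEH2B*, from -0.009 to 0.318 for *RNASEH2C* and from -0.145 to 0.045 for *XRN2*. The causes were not tested. Over all genes, 690 were called lower and 804 higher, from 233 to 2145 lower and from 289 to 2240 higher with 1 culture left out in either fit, 1406 and 1431 with the correction, and 1171 and 1247 with the correction and the replicate block. The fit without control replicate 3 after the correction gave the highest counts. The fits without a knockdown culture and without the correction gave the lowest. Fits with a culture left out have fewer degrees of freedom, and the part of this in the counts was not tested. By the replicate numbers of the titles, deviations of same-numbered cultures had correlations of -0.18, -0.10 and -0.04. The column labels number the cultures otherwise. There, knockdown replicates 1 to 3 are numbered 1, 4 and 5, and control replicates 1 to 3 are numbered 10, 11 and 1. Pairing by the labels was not tested. The replicate block, by the titles' numbers, gave *RNASEH2B* a log2 fold change of -0.39 without a call. Of the 157 genes of the lists, 3 to 13 were called lower and 0 to 8 higher over the alternatives without that correction, which itself gave 12 and 11, and up to 19 and 25 with a culture left out (control replicate 3). Each list with 0 calls in the main fit held at least 1 without control replicate 2, where 16.7% of all genes were called. Of the 17 XRN2 partners and termination factors, 5 were called higher without control replicate 3 after the correction, where 29.8% of all genes were. Levels per length moved with the length used, up to 30.1 FPKM for *RNASEH2B* with its coding length. With 3 cultures a group, changes smaller than the intervals given are not resolved.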
